A study of Homo sapiens with 12 samples.

Results

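ATAC-seq peak lists of oxamate-resistant pancreatic cancer cells with and without oxamate were compared for chromatin regions with peaks in only 1 of these groups. MIAPaCa2 is an established pancreatic ductal adenocarcinoma (PDAC) cell line, and the oxamate-resistant cells were a polyclonal population that had survived weeks of continuous culture in sodium oxamate. All libraries therefore share this 1 line, and the resistant cells are 1 selected population of it. The resistant cells were then given oxamate (treated) or phosphate-buffered saline (untreated) for a day, with 3 libraries in each group, and parental cells were handled in the same manner, with 3 treated and 3 untreated libraries. Nothing in the labels says that the libraries came from separate cultures, so p-values measure only the spread between these libraries. Peaks of the 6 resistant lists that overlapped by at least 1 bp on chromosomes 1 to 22 and X were merged into 103014 regions, of 178040 regions over all 12 libraries. A region was gained if 3 of 3 treated and 0 of 3 untreated libraries had a peak in it, and lost in the reverse case. This rule found 242 gained regions (0.235% of all) and 282 lost regions (0.274% of all), 524 in total. Because the rule chose the regions by these same peaks, their presence in the resistant libraries is a description and was not tested.

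Lactate dehydrogenase A (LDHA) converts pyruvate to lactate and restores the NAD+ that glycolysis consumes, and oxamate is a pyruvate analogue that competes for its active site. In ATAC-seq, the Tn5 transposase cuts and tags DNA that nucleosomes leave exposed. Active gene starts form broad, strong peaks in almost any cell, whereas enhancers inside and between genes form narrower peaks that vary more with cell state. In bulk libraries, fewer cells with an open site and less opening per cell cannot be told apart.

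The resistant lists held between 47681 and 59062 peaks. Sequencing depth is not in the lists, but relative depth could be recovered from them, and with the shallowest library set to 1 it was 1.42, 1.85 and 1.01 in untreated replicates 1 to 3 and 1.13, 1.1 and 1 in treated replicates 1 to 3. Untreated replicate 2 was thus the deepest and treated replicate 2 had the fewest peaks, and the difference in mean depth was within the spread of the libraries (two-sided exact permutation p = 0.3, where 0.1 is the smallest possible). Of the markers chosen for an epithelial line with mesenchymal traits, KRT8, KRT18, VIM, ZEB1 and AXL had a peak at a gene end in all 6 libraries, and KRT7, EPCAM and CDH1 had none. Of 9 markers of blood, liver, muscle and neurons, only RBFOX3 had a peak at its start, in 2 untreated libraries.

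Few windows before an annotated start overlapped a gained or lost region. Those printed belong to the 3 genes among the 12 best-ranked per direction at protein-coding ends whose region covers part of the window, and lower-ranked genes such as ZBTB46 are not printed. In these 3 windows all 3 untreated libraries had a peak and no treated library did. FBN3 encodes fibrillin-3 of the extracellular matrix, ZCCHC12 a zinc finger transcriptional coactivator, and LOC124900996 a protein of no known role here. The sequences are the 250 bases before the start from RefSeq (GRCh38.p14), read 5′ to 3′ on the strand of the gene, at chr19:8148870-8149119 (minus strand), chrX:118823574-118823823 (plus strand) and chr5:69901542-69901791 (plus strand). Capitals mark the bases inside the lost region, which were 207, 120 and 246 of the 250.
FBN3: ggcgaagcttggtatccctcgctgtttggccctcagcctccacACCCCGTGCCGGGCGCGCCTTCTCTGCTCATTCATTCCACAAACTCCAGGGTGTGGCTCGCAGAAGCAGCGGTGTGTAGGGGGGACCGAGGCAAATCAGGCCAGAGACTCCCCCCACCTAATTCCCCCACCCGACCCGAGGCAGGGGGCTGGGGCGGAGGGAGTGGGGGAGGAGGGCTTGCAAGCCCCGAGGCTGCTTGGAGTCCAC
ZCCHC12: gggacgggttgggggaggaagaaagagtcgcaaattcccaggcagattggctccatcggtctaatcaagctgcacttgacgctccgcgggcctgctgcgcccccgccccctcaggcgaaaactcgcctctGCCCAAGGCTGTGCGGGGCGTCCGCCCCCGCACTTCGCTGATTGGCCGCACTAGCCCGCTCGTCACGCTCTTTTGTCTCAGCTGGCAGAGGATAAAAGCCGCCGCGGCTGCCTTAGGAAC
LOC124900996: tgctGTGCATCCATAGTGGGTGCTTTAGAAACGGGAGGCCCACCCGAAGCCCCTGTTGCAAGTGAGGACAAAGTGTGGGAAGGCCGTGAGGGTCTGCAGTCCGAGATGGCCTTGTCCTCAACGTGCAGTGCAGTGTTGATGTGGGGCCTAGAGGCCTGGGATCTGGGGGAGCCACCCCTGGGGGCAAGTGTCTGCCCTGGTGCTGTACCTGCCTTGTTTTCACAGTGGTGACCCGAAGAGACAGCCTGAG
The window of FBN3 precedes an internal annotated start, and its lost region lay wholly inside the gene, whose outermost start is used for the counts of starts. The lost region of ZCCHC12 straddled the start, and that of LOC124900996 covered nearly the whole window and ran into the gene. Their GC content was 66.4%, 64.4% and 60%, against a median of 58.4% (quartiles 46.4 to 68%) over the same 250 bases of 34961 promoter windows. On either strand, the GC box GGGCGG was present in the windows of FBN3 and ZCCHC12 and the CCAAT box in that of ZCCHC12. The AP-1 site TGACTCA, the cyclic AMP response element TGACGTCA, the E-box CACGTG and the TATA box TATAAA were found in none of these 3. The shares that follow were counted in full windows of 300 bases, longer than the 250 bases searched in these 3. Over all windows, 45% held the GC box and 34.6% held CCAAT. In the windows of genes with a region within 1 kb of an end, the GC box was in 65.2% of 46 windows for lost and 50% of 34 windows for gained regions, and TGACTCA was in 4.35% and 5.88%, against 4.92% of all windows.

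The first question was how much of the accessible chromatin the gained and lost regions make up. A peak was called in all 6 libraries in 32162 regions, and 5758 regions were called in exactly 3. There are 20 possible choices of 3 of the 6 libraries, and the gained and the lost pattern are 1 each of these. Regions close to the rule were more numerous than those that met it. There were 796 regions in 3 of 3 treated and 1 of 3 untreated libraries and 961 in the reverse case, and 1644 in 2 of 3 treated and no untreated library against 2014 in the reverse case. In each of these comparisons the untreated libraries had the larger number, as they had for lost against gained. The total number of peaks pointed the same way but did not differ beyond the spread between libraries, at 55748 ± 3143 untreated and 53340 ± 5438 treated (SD, n = 3, two-sided exact permutation p = 0.6, adjusted p = 0.7 over 9 tests of library totals).

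**Figure D1:**
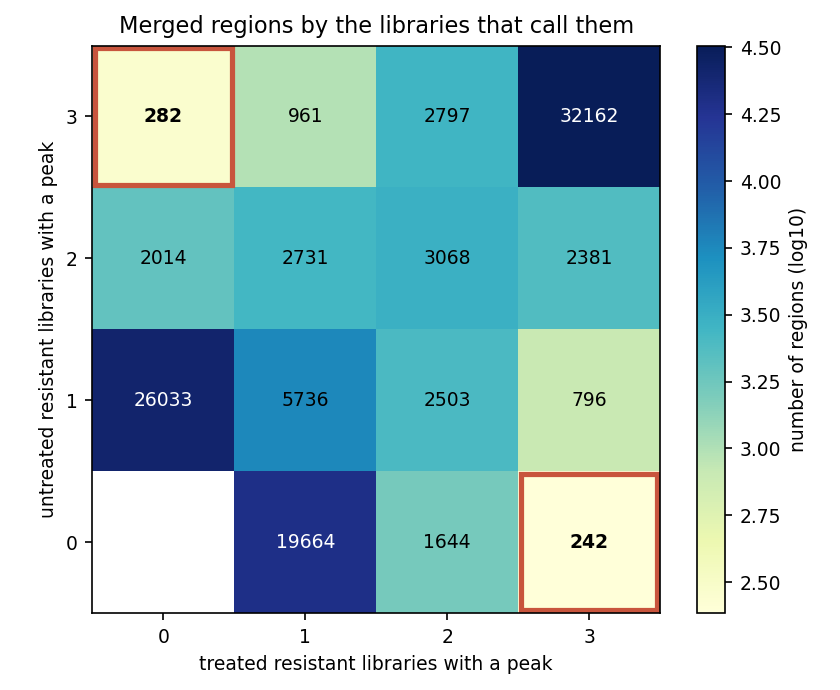
Number of regions by how many of the 3 untreated and how many of the 3 treated resistant libraries had a peak. The 242 gained and 282 lost regions are the corner patterns (0 against 3 and 3 against 0), and 32162 regions were called in all 6 libraries.

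Gained and lost regions were mostly weak peaks. Ranked by -log10 q within each list, the median gained region stood at the top 71.5% and the median lost region at the top 77.4%, so most lay in the weaker part of the lists. Of the 242 gained regions 20 had a median rank above the middle of the lists, and of the 282 lost regions 10 did. A peak with -log10 q of at least 3 was present in all 3 lists for 38 gained (15.7%) and 13 lost regions (4.61%). Regions just outside the rule, with a peak in 1 library of the other group, had median ranks of 68.9% on the treated and 70% on the untreated side. Their median fold over the local background was 3.92 and 3.6, against 3.84 for gained and 3.37 for lost regions.

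The gained region with the best rank lay inside CCNT1, which encodes cyclin T1, the partner of CDK9 in the factor that releases paused RNA polymerase II. At chr12:48706571-48706909 its peaks stood 24.9, 21.4 and 25.4-fold over the local background in treated replicates 1 to 3, and no untreated library had a peak there. Where parental libraries had it they had it as strongly, at 26.6 and 33.2-fold in untreated replicates 1 and 2 and 27-fold in treated replicate 3, and the other 3 parental libraries had none. The region was therefore present at full strength or not called at all in each of the 12 libraries, in both treatments of the parental cells.

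The next gained region by rank, nearest to LINC03140 (a long non-coding RNA gene) at chr4:128601336-128601785, had 5.91, 11.2 and 8.43-fold peaks in the treated libraries and none in any parental library. A region inside DST, which encodes the cytoskeletal linker dystonin, at chr6:56808959-56809459 had 14.6, 4.61 and 12.7-fold peaks, also with no parental peak. Both were seen in treated resistant libraries alone among the 12. By contrast, the region near CCDC201 (chr7:45854382-45854540) had 7.35, 7.46 and 8.95-fold peaks in treated resistant libraries and peaks of 3.37 to 6.45-fold in all 6 parental libraries. The region inside TES, which encodes the focal adhesion protein testin (chr7:116250084-116250217, 7.71, 6.67 and 6.63-fold), and that near HOOK1, which encodes a cargo adaptor of microtubules (chr1:59879489-59879845, 6.07, 7.1 and 5.52-fold), were likewise called in all 6 parental libraries. For these 3 regions the untreated resistant libraries were the only group without peaks. The other 6 of the 12 best-ranked gained regions lay in or near LOC124901385, ZNF652, HEATR3, SAMD3, PRR19 and CAGE1. Their folds were between 3.1 and 7.7.

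Among the lost regions reported here, 2 inside non-coding RNA genes had the highest median folds. The region inside LINC00305 (chr18:64082873-64083037) had 9.54, 6.54 and 8.4-fold peaks in untreated replicates 1 to 3, and that inside LOC101928933 (chr1:179943741-179944136) had 8.01, 7.22 and 7.2-fold peaks. The region inside SEL1L3 (chr4:25767999-25768311) had 7.38, 6.23 and 5.82-fold peaks. Each of these had peaks in some parental libraries, in both treatments. A lost region within the immunoglobulin kappa locus (chr2:89836472-89836812), whose genes are rearranged in B cells, had 4.39, 4.55 and 5.17-fold peaks and was called in 5 of 6 parental libraries, including all 3 treated ones. Other lost regions lay inside SND1, which encodes an RNA-binding coactivator (7.05, 5 and 5-fold), PIGU, which encodes a subunit of the transamidase for GPI anchors (3.22, 3.69 and 4.05-fold), and INIP, which encodes a component of a single-stranded DNA binding complex (4.92, 4.89 and 3.78-fold). A region inside BCL2, which encodes an inhibitor of apoptosis (chr18:63161724-63162114), had 4.08, 4.33 and 5.3-fold peaks in the untreated libraries and was found in both untreated and treated parental libraries.

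**Figure D2:**
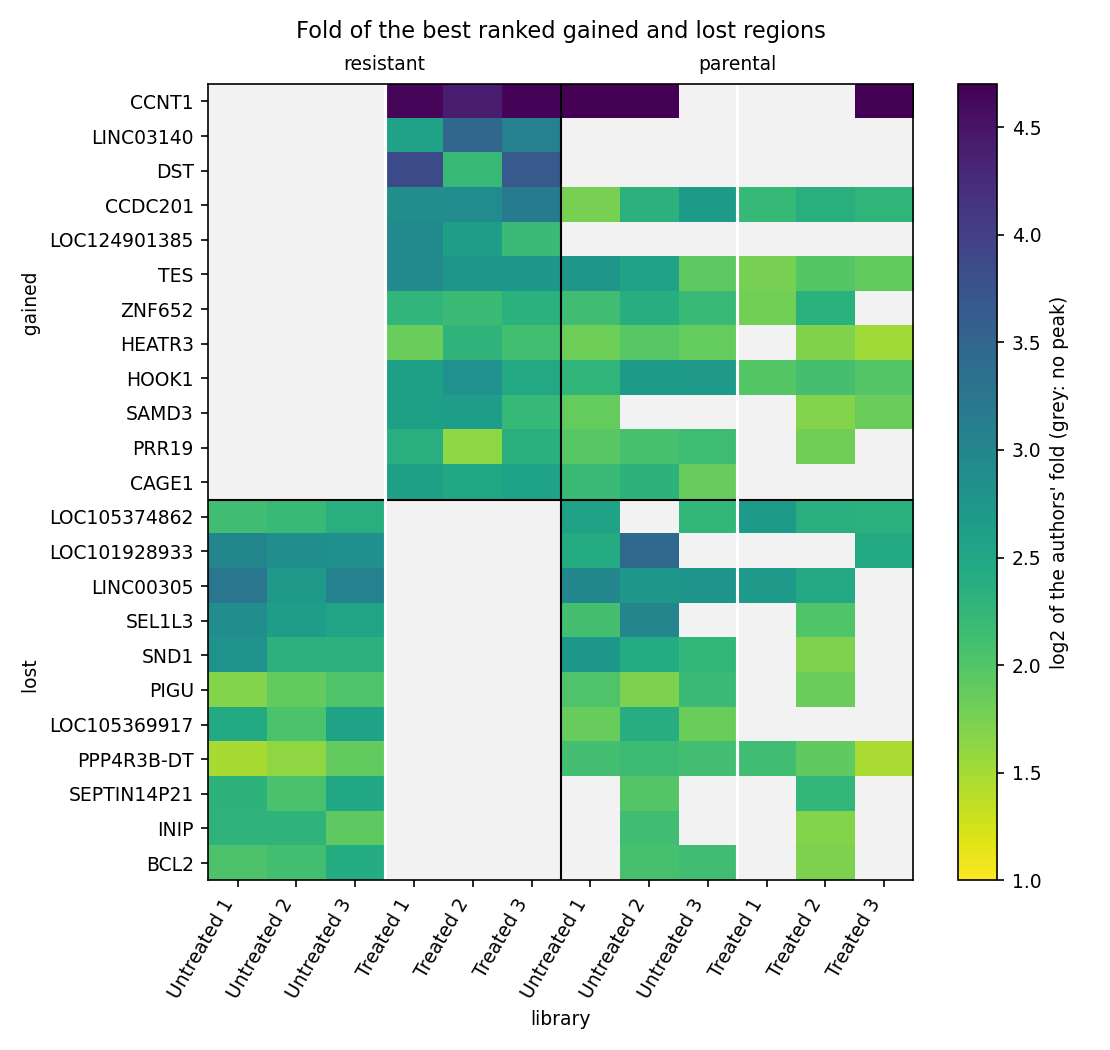
Fold over the local background, as the authors' peak caller gave it, of the best-ranked gained and lost regions (rows, by gene) in each of the 12 libraries (columns). Blank cells are libraries with no peak. The region of CCNT1 stood between 21.4 and 33.2-fold wherever it was called, and LOC105374862 names the region within the immunoglobulin kappa locus.

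The gained and lost regions were next placed relative to genes. Within 1 kb of a gene end (the start or the 3′ end of any annotated gene) lay 39 gained regions, which is 16.1% (95% exact binomial interval 11.7 to 21.4), and 43 lost regions, which is 15.2% (11.3 to 20). These intervals overlapped one another, and the share among all regions called in exactly 3 of 6 libraries was 13.8%. Regions called in all 6 libraries lay at gene ends in 44.1%, and all regions in 22.1%, which is above both intervals. Intervals here cover counting error only. Inside protein-coding genes lay 137 gained regions (56.6%, in 140 different genes, as genes overlap) and 143 lost regions (50.7%, in 147 different genes), and outside any gene lay 76 (31.4%) and 97 (34.4%). Of regions called in exactly 3 of 6 libraries, 53.9% lay inside protein-coding genes and 35.2% outside any gene. Over all regions these shares were 58.7% and 30.8%. The interval of the lost share inside protein-coding genes (44.7 to 56.7) lay below 58.7%. Within 1 kb of a region called in all 6 libraries lay 15 gained (6.2%) and 23 lost regions (8.16%), so most were not flanks of a constant peak. The share among regions called in exactly 3 of 6 libraries was 5.64%, so this is not particular to gained and lost regions.

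At the ends of protein-coding genes 21 gained and 24 lost regions were found. The gained ones with the best ranks included PSMA3, a subunit of the 20S proteasome (4.52, 4.07 and 4.54-fold in treated replicates 1 to 3), and UBE2V2, a ubiquitin-conjugating enzyme variant (4.93, 3.68 and 5.27-fold). HOXB5, a homeobox transcription factor, had 4, 4.02 and 5.03-fold peaks, and POLR3A, the largest subunit of RNA polymerase III, had 3.56, 4.25 and 3.59-fold peaks. Of these 4 genes, none exceeded 5.27-fold in any treated library. POLR3A had no parental peak at that place, while PSMA3 had one in 5 of 6 parental libraries. The remaining 8 of the 12 best ranked were at ends of PRR19, SPDYE21, SSH2 (a cofilin phosphatase), LOC124905938, OR7E24 (an olfactory receptor), DLG4 (the postsynaptic scaffold PSD-95), LST1 and NT5DC3. Their folds were between 3.1 and 5.23.

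The lost regions named here at protein-coding ends had folds between 1.95 and 4.71, against 3.1 to 5.27 for the gained ones named above. HES1, a transcriptional repressor downstream of Notch, had 1.95, 2.06 and 2-fold peaks in the untreated libraries, and DDX6, an RNA helicase of processing bodies, had 3.78, 3.78 and 3.6-fold peaks. The peaks at HES1 were below the median of lost regions, which was 3.37-fold. The region shared by the facing ends of PGK1, a glycolytic kinase, and TAF9B, a TATA-binding protein associated factor, had 2.94, 3.78 and 3.59-fold peaks. RSPH4A, a component of ciliary radial spokes, had 3.98, 4.6 and 4.71-fold peaks, and CCL26, the chemokine eotaxin-3, had 3.43, 3.28 and 4.65-fold peaks. Others were at DENND4C, near RPS6 of the small ribosomal subunit, and at PLEKHF1, FLNA, FBN3, ZCCHC12, LOC124900996 and NPTX1 (a neuronal pentraxin), with folds between 2.53 and 4.09. DDX6 and ZCCHC12 had no parental peak at the place, whereas FLNA had one in 5 of 6 parental libraries.

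A change at the start of a gene was rarer still. Of 15812 protein-coding genes with an annotated start, 9637 (60.9%) had a peak within 1 kb of it in all 6 resistant libraries and 5077 (32.1%) had one in none. Counted by any peak within 1 kb, 3 starts (0.0190%) were gained and 9 (0.0569%) were lost, where a start may also be reached by a peak that lies mostly beyond it. Merged regions were not used for this count. A lost start therefore need not lie in a lost region, nor a gained start in a gained one. The 3 gained starts were those of LST1, a leukocyte-specific transcript (4, 3.46 and 3.76-fold), SPDYE21 of the Speedy cell cycle family (5.22, 4.65 and 4.53-fold) and MS4A10, a membrane-spanning protein (3.28, 3.68 and 3.45-fold). Parental peaks at these 3 starts were found in 1, 3 and 1 of 6 libraries.

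The lost starts included that of BBC3, which encodes PUMA, a pro-apoptotic member of the BCL2 family (3.01, 2.29 and 2.28-fold in untreated replicates 1 to 3). Peaks at the start of RHOU stood at 1.77, 1.87 and 2.11-fold, and those at the start of FLNA, which encodes the actin cross-linker filamin A, at 2.67, 2.66 and 2.76-fold. RHOU and FLNA had a peak at the start in all 3 untreated parental libraries and in 1 treated parental library each. The other lost starts were those of ARID5B, an ARID-domain chromatin protein (3.03, 3.55 and 3.18-fold), TNK1, a non-receptor tyrosine kinase (3.08, 3.08 and 3.28-fold), ZBTB46, a zinc finger transcription factor (2.53, 2.98 and 3.31-fold), and FBN3, ZCCHC12 and LOC124900996. FBN3 had 3.7, 2.92 and 4.01-fold peaks, ZCCHC12 had 3.39, 3.96 and 3.83-fold peaks and LOC124900996 had 3.09, 2.76 and 3.06-fold peaks. ARID5B and ZCCHC12 had no peak at the start in any parental library.

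Protein-coding genes with more than 1 region in the same direction were 2. EHMT1, which encodes a histone H3 lysine 9 methyltransferase and spans 217 kb (chr9:137619005-137836127), held 3 gained regions and 1 lost region. The gained ones had 4.03, 3.85 and 3.55-fold, 3.32, 3.62 and 3.76-fold and 3.12, 3.47 and 3.45-fold peaks in treated replicates 1 to 3, and the lost one had 3.07, 3.84 and 3.51-fold peaks in untreated replicates 1 to 3. Both directions thus occurred in this gene. DDR2, which encodes a collagen receptor tyrosine kinase and spans 157 kb, held 2 lost regions, at 3.51, 3 and 3.79-fold and at 3.4, 3.42 and 4.75-fold.

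The genes of the pathways that oxamate touches were then examined. Of 159 genes in 12 lists, 1 (0.629%) had a gained and 3 (1.89%) had a lost region in the span or within 1 kb of an end, against 153 (0.766%) and 158 (0.791%) of 19974 protein-coding genes. These counts rest on 1 and 3 genes, and nothing particular to the lists is read from them. The gained region was inside OGDH, the oxoglutarate dehydrogenase of the citric acid cycle (chr7:44693796-44694305, 3.11, 3.48 and 3.57-fold), 1 of 32 genes of pyruvate entry and the citric acid cycle. The lost ones were at the 3′ end of PGK1 (chrX:78128925-78129908), 1 of 19 genes of glucose import and glycolysis, and inside EPAS1, which encodes the hypoxia factor HIF-2 alpha, 1 of 12 genes of the hypoxia response (chr2:46333944-46334389, 4.21, 3.47 and 4.72-fold), and TXNRD1, thioredoxin reductase 1, 1 of 11 genes of the antioxidant response (chr12:104330445-104330902, 2.52, 3.28 and 2.65-fold). No member of the lists for lactate dehydrogenase subunits, lactate transport and sensing, glutamine and aspartate, serine, glycine and one-carbon metabolism, the pentose phosphate pathway, AMPK, the integrated stress response or AP-1 subunits had a region in either direction.

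The starts of these pathway genes were mostly constant. Of the 135 with an annotated start, 118 (87.4%) had a peak there in all 6 libraries, 12 in none and 5 in some, and none was gained or lost. Over all 15812 protein-coding starts, 60.9% had a peak in all 6 libraries, 0.019% were gained and 0.0569% were lost. With shares this low, finding none among 135 is not read as a result about these genes. At the start of LDHA, the target of oxamate, peaks stood at 4.81, 5.24 and 4.97-fold untreated and 4.76, 5.72 and 5.38-fold treated. The values of the groups overlapped. LDHB, which encodes the other main subunit, had no peak at its start in any of the 6 libraries. Among the cell type markers, 1 gained region lay inside EPCAM, the epithelial cell adhesion molecule (chr2:47373910-47374059, 4, 3.95 and 4.46-fold), and no marker had a lost region.

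Gained regions were narrower than lost ones. Their median width was 313 bp (quartiles 248 to 450) against 423 bp (295 to 620), with 382 bp (277 to 535) for regions called in exactly 3 of 6 libraries and 813 bp (536 to 1212) for regions in all 6. Narrower than 300 bp were 109 gained (45%, interval 38.7 to 51.5) and 75 lost regions (26.6%, 21.5 to 32.2). The order held at gene ends, with medians of 293 and 433 bp, and away from them, with 319 and 419 bp. Median peak widths of the libraries themselves were 374 ± 54 bp untreated and 356 ± 33.7 bp treated (SD, n = 3, two-sided exact permutation p = 0.7, adjusted p = 0.7). The smallest peak width, which follows fragment length, was between 94 and 124 bp in the 6 libraries, and its part in the difference of widths was not tested. With only peaks of at least 124 bp kept, 156 gained and 298 lost regions were found.

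**Figure D3:**
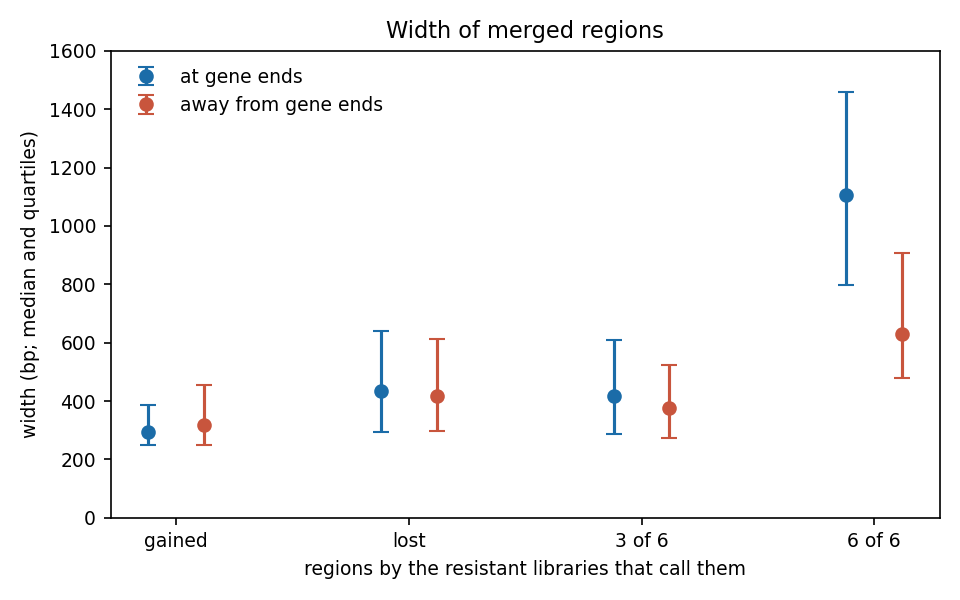
Widths in bp of gained and lost regions, regions called in exactly 3 of 6 and regions called in all 6 resistant libraries, at gene ends and away from them. Gained regions had medians of 293 and 319 bp, lost regions 433 and 419 bp, and regions called in all 6 libraries 1105 and 630 bp.

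The next question was how far treated and untreated lists stayed alike at gene ends and away from them. The Jaccard index, the bases 2 lists share divided by the bases either covers, between a treated and an untreated library was 0.749 ± 0.0314 at gene ends and 0.462 ± 0.032 away from them (SD over 9 pairs, which share libraries). Libraries of the same group were no more alike than that, with means of 0.749 untreated and 0.74 treated at gene ends, and 0.452 and 0.461 away. The separation of the groups, which is the mean distance between groups minus the mean distance within them, was -0.00431 at gene ends and -0.00603 away (one-sided exact permutation p = 0.6 for each, where 0.1 is the smallest possible with 10 divisions). The separations differed by 0.00172 (two-sided exact permutation p = 0.6). Oxamate thus left no detectable mark on the likeness of the lists in either place with 3 libraries a group.

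Likeness fell with distance from genes in the same way within and between groups. Between groups the Jaccard index was 0.749 within 1 kb of a gene end, 0.498 at 1 to 5 kb, 0.458 at 5 to 20 kb, 0.435 at 20 to 100 kb and 0.382 beyond 100 kb. Within groups it was 0.745, 0.493, 0.452, 0.427 and 0.377 in the same order. The within-group mean was below the between-group mean at every distance, by less than the SD of the pairs.

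**Figure D4:**
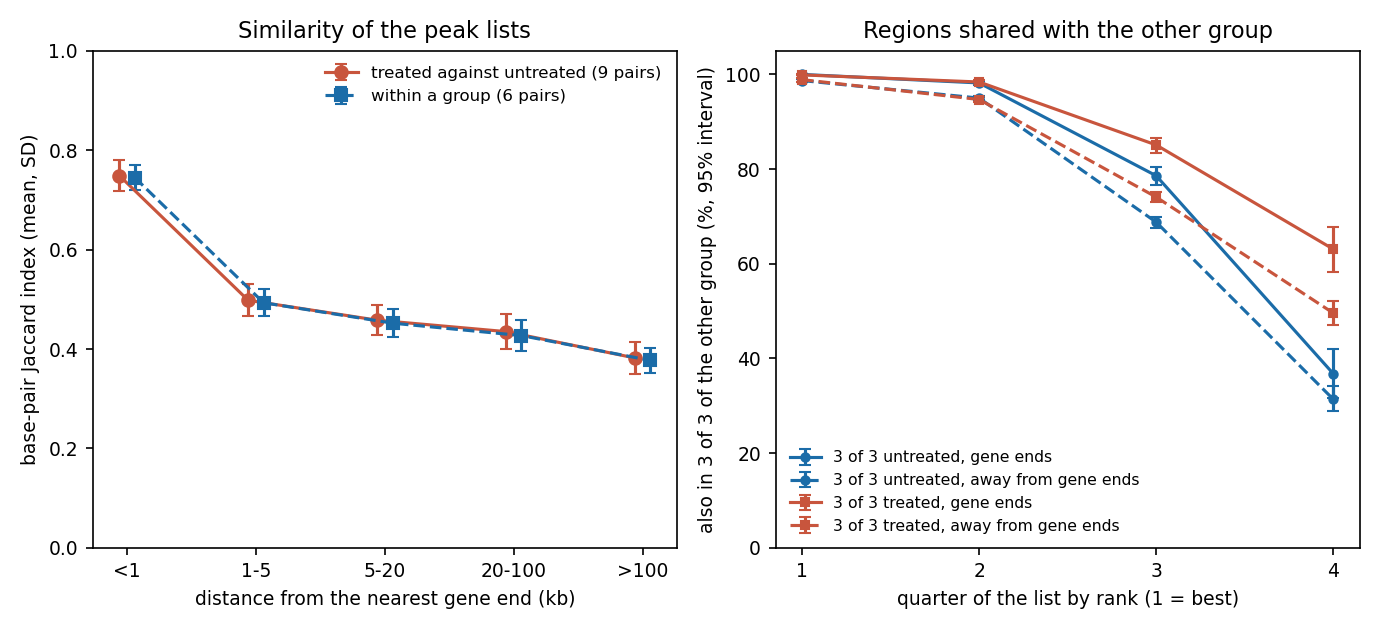
Base-pair Jaccard index between pairs of resistant libraries, for pairs of the same group and pairs of a treated and an untreated library, by distance from the nearest gene end. Between-group means fell from 0.749 within 1 kb to 0.382 beyond 100 kb, and within-group means from 0.745 to 0.377.

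Regions held in all libraries of a group were also held in the other group more often at gene ends. Of regions called in all 3 untreated libraries, 95.3% at gene ends and 84.3% away were called in all 3 treated ones, and in the reverse direction 96.5% and 86.1% were. Lost regions made up 0.289% of the untreated regions at gene ends and 1.12% away, and gained regions 0.266% and 0.971% of the treated regions. Peaks at gene ends were stronger, however, so the same comparison was made within 4 classes of peak rank. In class 1, the strongest, 8761 of 8765 untreated regions at gene ends and 4528 of 4587 away (98.7%) were also called in all 3 treated libraries. In class 3 78.6% (interval 76.6 to 80.4) and 68.8% (67.6 to 69.9) were, and in class 4, the weakest, 36.8% (31.7 to 42.1) and 31.4% (28.9 to 34.1). In the reverse direction, 85.1% of the treated regions of class 3 at gene ends and 74.1% away were called in all 3 untreated libraries, and in class 4 63.1% (58.2 to 67.7) and 49.6% (47 to 52.1) were. The intervals of the places in class 4 thus overlapped for untreated regions and not for treated ones, and shares fell from class 1 to class 4 in both places. Of the lost regions, 0, 1, 13 and 29 at gene ends and 4, 5, 96 and 134 away came from classes 1 to 4.

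Far from genes, losses outnumbered gains, but the order turned when 1 library was left out. Without treated replicate 3 there were 38 gained and 34 lost regions there, and without untreated replicate 3 there were 12 and 157. With all 6 libraries, beyond 100 kb from any gene end, in stretches that include the repeats around centromeres, 4 regions were gained (0.0804% of 4977) and 24 were lost (0.482%), and beyond 500 kb 1 was gained and 15 were lost. The regions just outside the rule leaned the same way, with 44 in 3 of 3 treated and 1 of 3 untreated libraries against 78 in the reverse case. Of the 24 lost ones, 8 were on chromosome 13, 6 on chromosome 1, 4 on chromosome 7 and 2 on chromosome 10. In the same order, these chromosomes held 673, 1015, 673 and 358 of the 4977 far regions. The number of all peaks in such places was 2285, 3119 and 1670 in untreated and 2037, 2133 and 1701 in treated replicates 1 to 3, which overlapped (two-sided exact permutation p = 0.5). Untreated replicate 2, the deepest library, had the most. In parental libraries 22 of the 24 lost regions had a peak in at least 1 library and 13 in 5 or 6, and 11 were found in more treated than untreated parental libraries against 1 in fewer. All far parental peaks made up 5.26 ± 1.3% of untreated and 8.75 ± 0.727% of treated parental lists (SD, n = 3, two-sided exact permutation p = 0.1, the smallest possible). The 11 against 1 and the share of all far peaks went the same way, and a link between them was not tested.

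The parental libraries, which the rule did not use, show whether the same regions moved with oxamate before resistance was selected. Of the gained regions, 38, 52.9 and 34.7% had a peak in untreated parental replicates 1 to 3 and 17.8, 26 and 14.5% in treated replicates 1 to 3. Of the lost regions, 41.1, 43.3 and 33.3% had one in untreated and 18.4, 31.6 and 23% in treated parental libraries. In both lists every treated parental library was below every untreated one. The share fell by 22.5 percentage points for gained regions, from 41.9 ± 9.69 to 19.4 ± 5.96%, and fell by 14.9 percentage points for lost regions, from 39.2 ± 5.23 to 24.3 ± 6.66% (SD, n = 3, two-sided exact permutation p = 0.1 for each, the smallest possible, adjusted p = 0.15 over 3 tests). Regions called in exactly 3 of 6 resistant libraries fell alike, from 40.5 ± 5.9 to 21.2 ± 5.6%. The difference between gained and lost shares moved from 2.63 to -4.93 percentage points, a change of -7.56 (two-sided exact permutation p = 0.2, adjusted p = 0.2). Gained regions were thus not found more often in treated parental cells.

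Region by region, 186 gained (76.9%) and 216 lost regions (76.6%) had a peak in at least 1 parental library, and 76.2% of the regions in exactly 3 of 6 did. No gained or lost region met the gained rule in the parental libraries, and 7 gained and 7 lost regions met the lost rule there. By that rule 205 (0.146%) of 140283 parental regions were gained and 1695 (1.21%) were lost. Of the gained regions 131 were found in more untreated than treated parental libraries, 20 in fewer and 91 in equal numbers, and of the lost regions 123, 40 and 119. Treated parental replicate 1 had fewer peaks than any other library, whereas treated parental replicate 2 had the most, at 62414. Bases covered were 25, 25.5 and 20.7 Mb in untreated and 13.8, 19.4 and 18.3 Mb in treated parental replicates 1 to 3. The median -log10 q was 3.32, 4.16 and 2.87 untreated and 2.84, 2.43 and 2.25 treated. The part of list length, coverage, peak strength and depth in these shares was not tested.

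**Figure D5:**
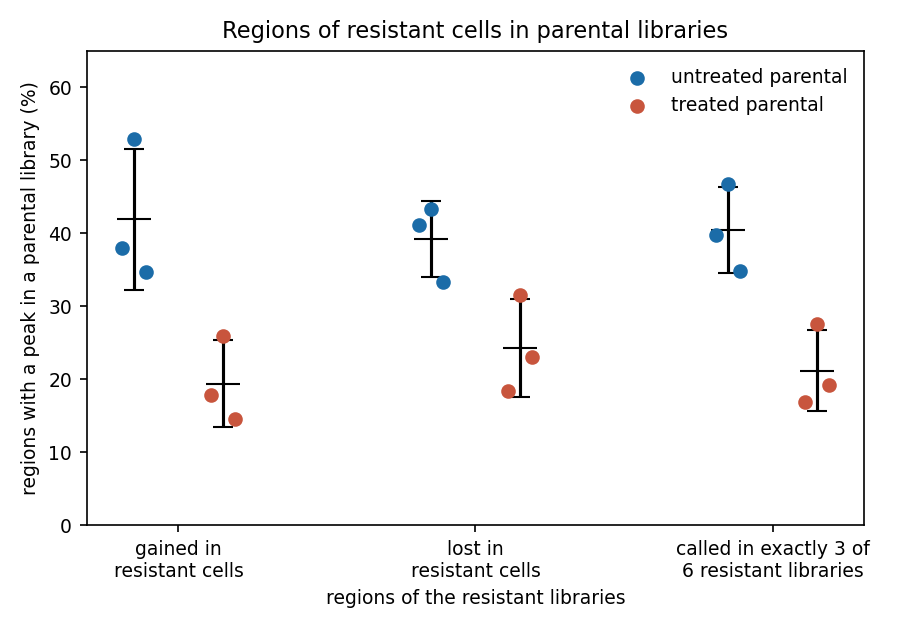
Share (percent) of the gained, the lost and all exactly-3-of-6 regions of resistant cells that had a peak in each untreated and treated parental library, with group means. Untreated parental libraries lay between 33.3 and 52.9% and treated ones between 14.5 and 31.6%.

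Regions called in all 6 resistant libraries can change only in strength, which was compared by the rank of the fold among the 32162 such regions. No region was higher (0%) or lower (0%) in treated libraries at an adjusted p of 0.05 in limma, and the smallest adjusted p was 1. Without adjustment, p was under 0.05 for 718 higher and 657 lower regions, which is 4.28% of those tested. The median absolute change was 0.09 on the log2 scale, below the median SD within groups of 0.16. The log2 changes at gene ends ran from -0.20 at the 5th to 0.20 at the 95th percentile, and away from them from -0.25 to 0.27. Values were also simulated with the real mean of each region and the same SD for every region. In these, limma recovered 53% of 200 regions changed by 0.5 and 100% of those changed by 1 on the log2 scale. The simulation left out differences in spread between regions and between libraries, so it does not give the power in the real lists.

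The regions with the smallest unadjusted p illustrate the size of the differences, and none passed adjustment (limma adjusted p = 1 for each). The region at GPN2-AS1 (chr1:26877934-26878430) had 5.14, 4.69 and 5.72-fold peaks untreated and 9.74, 7.76 and 8.77-fold peaks treated, a log2 difference of 0.71 (SE 0.11) after normalization. Those nearest to PTPN5 (a neuronal tyrosine phosphatase), LOC124903731, ADGRG1 (an adhesion G protein-coupled receptor) and POMC (the precursor of ACTH) had log2 differences of 0.66, 0.81, 0.56 and 0.54. In each of these the groups did not overlap. In the other direction, the region near GNA13, a G protein alpha subunit (chr17:65014649-65014948), had 13.9, 12 and 12.4-fold peaks untreated and 8.64, 9.01 and 8.37-fold peaks treated, a log2 difference of -0.59 (SE 0.12). Those nearest to LOC124903223, NCS1 (a neuronal calcium sensor), STOX2 and EMBP1 had log2 differences of -0.77, -0.54, -0.53 and -0.47.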

How the data were processed

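Peak lists of 12 ATAC-seq libraries in 4 groups of 3 were used, with groups and replicate numbers from the sample titles. The authors mapped reads with Bowtie2 2.1.0 (hg38), discarded duplicates and reads that were mitochondrial or not unique, and ran MACS2 in paired-end mode on each library for broad peaks. The MACS2 version, effective genome size, any control and any blacklist are not given in the sources used here. For every peak the deposited lists give its position, a score, a fold over the local background, and -log10 of the p-value and q-value. The smallest deposited -log10 q was 1, a q of 0.1. The lists hold no read counts, so the presence of peaks was compared and the read-count test of the study was not run. Depth relative to the shallowest library was recovered from the background pileup and the smallest peak width.

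Peaks off chromosomes 1 to 22 and X were left out (0.683% of the resistant lists). Genes were taken from a RefSeq table (GRCh38.p14, 59098 genes, 19974 protein-coding), and strand and starts from its promoter windows, of which those on chromosome 8 were not analysed here. Members and gene lists were chosen with earlier results of these data known. Named genes were the 12 regions per direction whose median rank by -log10 q was best, the 12 best at protein-coding ends, members of the gene lists, genes with more than 1 region, and the 5 regions per direction with the smallest p for strength. The values at gene starts were added after seeing the data. A region chosen by the rule is not reported here.

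Library totals, separations and parental shares were compared by exact permutation tests, with Benjamini-Hochberg adjustment. Strength was the quantile-normalized log2 of the deposited fold of the highest peak, tested with limma 3.58.1 in R 4.3.3 (lmFit, eBayes), with a threshold of 0.05. The script was tested on simulated data with known changes. Exact (Clopper-Pearson) intervals are at 95%. Python 3.11.15, numpy 2.4.6, pandas 2.3.3 and scipy 1.17.1 were used. As alternatives, each library was left out, the replicate number was used as a block, only peaks with -log10 q of 3 or more, equal numbers of peaks or peaks above a width minimum were kept, regions were merged otherwise, and gene ends were taken at 5 kb or of protein-coding genes alone.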

Additional observations from a re-analysis of the deposited data

Results flagged for a closer look

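The total of gained and lost regions was lower in resistant than in parental cells. The p-values below come from exchanging treatment labels within each population, so they do not test whether the populations respond equally. By the same rule resistant libraries had 524 (0.509% of their regions) and parental libraries 1900 (1.35% of theirs), a difference of -1376 (two-sided exact permutation of treatment labels within populations, p = 0.05 over 100 combinations, with the rule applied anew to each). It was -1775 when only peaks of -log10 q at or above 3 were kept (exact permutation p = 0.05) and -987 with 45748 peaks per list (exact permutation p = 0.07). The relative depth of the parental libraries was 1.53, 1.33 and 1.77 untreated and 1.66, 2.77 and 2.38 treated, and their smallest peak width was between 67 and 87 bp, against 94 to 124 bp in resistant libraries. The part of depth and fragment length in the difference was not tested.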

How the results depend on the processing

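Peaks with -log10 q of at least 3 gave 120 gained and 97 lost regions, of which 38 and 13 were among the 242 and 282, and 20.6% of the lost ones at gene ends. A width minimum gave 156 gained regions, and a peak over at least 50% of a region gave 186 gained and 341 lost, sharing 86 and 93. Leaving out 1 library loosens the rule to the libraries that remain, so counts can rise by this alone. It gave 415 to 1179 gained regions (highest without treated replicate 2) and 426 to 1147 lost ones (highest without untreated replicate 2). Of the 242 gained regions at least 236 were kept each time, and of the 282 lost ones at least 259. Over 100 kb from genes the ranges were 12 to 38 gained and 34 to 157 lost (38 against 34 without treated replicate 3), and at protein-coding starts 7 to 20 gained and 13 to 34 lost, both chosen after seeing the data. At gene ends lay 42.6% of gained and 39.4% of lost regions within 5 kb, and 8.68% and 8.51% for protein-coding genes. Separations without 1 library ran from -0.0098 to 0.00432 at gene ends and from -0.013 to -0.000134 away, and their difference from -0.00644 to 0.00856. Treated minus untreated, peaks numbered 164 more at -log10 q of at least 3, and without 1 library the differences ran from -5002 to 421 peaks, -4.37 to 0.318 Mb covered, -44.7 to 9.33 bp in median width, -1.29 to 0.0902 Mb at gene ends and -3.08 to 0.228 Mb away. The causes were not tested. The parental shares of gained regions changed by -26 to -16.9 percentage points, those of lost regions by -18.5 to -11.9 and their difference by -10.4 to -4.06. The total against parental cells was -987 with equal numbers of peaks. No alternative gave a call in strength, and the smallest adjusted p in limma was 0.197, with all 12 libraries in the fit. Recomputed counts were judged by a fixed ratio to the main value, shares by its exact interval, and tests by direction and side of the threshold. Of the values recomputed for the main comparisons, 127 stayed within these limits, 42 moved further, 12 changed sign and 1 no longer passed. The 127 include the counts for strength, where no alternative gave a call.

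Same-numbered treated and untreated libraries correlated at 0.18, 0.26 and 0.04, so the numbers were not taken as pairs, although each untreated library correlated best with its own number. A replicate block left the peak difference at -2408 (exact sign-flip p = 0.75), gave p = 0.25 for the parental shares, the smallest possible, and changed no call. Weak peaks near the calling threshold, the unknown absolute depth and 3 libraries a group limit what these lists can resolve.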
